A study of Mus musculus with 15 samples.

Results

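The cytosolic ribosomal protein genes are the genes for the protein parts of the ribosome that works outside the mitochondria. Members were found by symbol in the deposited expression table: RPL, RPS or RPLP followed by a number and the usual suffixes, plus RPSA and RPS27RT. This rule uses no measured value. It took 87 of the 24891 entries kept, of which 34 belong to the small subunit, 50 to the large subunit and 3 to the stalk. RPS27 and RPS27RT share their reads and were summed, which left 86 rows. The label held for most of them: 82 rows stood at 1 or more in every library on the scale used below. The other 4 were RPL10L, RPL39L, RPL3L and RPS4L, which stayed near 0 in at least some libraries. RPS4L and RPL32L carry ribosomal protein symbols but are annotated as processed pseudogenes in GENCODE M21.

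The study sequenced RNA from subcutaneous tumors grown from 105K cells, a Tsc2-deficient line whose source was a kidney tumor in a mouse of genotype Tsc2+/-, and asked what knockdown of the immune checkpoint B7-H3 (gene Cd276) changes. All 15 libraries come from this line grown in C57BL/6J males that were 6 weeks old at injection, and all cells carried an shRNA and had passed puromycin selection. The cells were heterogeneous pools of transduced cells and not single clones. The 5 groups held 3 libraries each. For bulk tumors there were the non-target control sh-NC and sh-B7-H3 (1). For sorted cells, which remained once magnetic beads had been used to deplete host cells from a dissociated tumor, the same pair was joined by a separate shRNA, sh-B7-H3 (2). The study's methods call the replicates biological samples, but neither they nor the labels tie each library to its own mouse, so p-values measure only the spread between these libraries, which may be technical.

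Each ribosome holds a single copy of nearly all of these proteins, and cells make them in step with ribosomal RNA. Vertebrate ribosomal protein mRNAs begin with a C followed by a run of pyrimidines, the terminal oligopyrimidine (TOP) tract, through which mTORC1 controls their translation. Loss of TSC2 leaves mTORC1 active. RPS6, the substrate that gave S6 kinase its name, is phosphorylated downstream of it. The values here are mRNA levels and carry no information on translation.

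In the genome sequence, some of the genes show this tract at their annotated start. RefSeq promoter windows (GRCm38.p6) were at hand for 66 of the 87 members and for 27025 genes in all. A C exactly at the annotated start, followed by at least 4 bases that are each C or T on the gene's own strand, was found in 15 members, or 22.7%, against 3.01% of all genes. Allowing the same pattern to begin anywhere within 20 bases on either side of the start, 78.8% of members and 49.9% of all genes held it. Annotated starts are not measured starts, and a match is a description of the letters. The starts of 6 members are shown with 10 bases before and 20 from the start on, with the tract in capitals, to show the tract in members from each subunit and the stalk:
RPS6 (chr4:86857348-86857377, minus strand): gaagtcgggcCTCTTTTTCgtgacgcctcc
RPS15A (chr7:118116128-118116157, minus strand): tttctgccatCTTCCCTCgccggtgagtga
RPS27 (chr3:90213629-90213658, minus strand): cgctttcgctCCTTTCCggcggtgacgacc
RPL28 (chr7:4792955-4792984, plus strand): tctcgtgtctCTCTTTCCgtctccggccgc
RPL35 (chr2:39005112-39005141, minus strand): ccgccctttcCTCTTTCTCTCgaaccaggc
RPLP2 (chr7:141447641-141447670, plus strand): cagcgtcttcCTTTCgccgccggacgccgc

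The coding sequences decide how far each row can be read as 1 gene. Ribosomal protein genes have many processed pseudogenes, and reads of 75 bases cannot separate copies that match over their whole length. Of 85 members with a coding sequence in GENCODE M21 (GRCm38), 4 shared no window of 75 bases with another gene's transcript. Of the rest, 66 shared over 50% of their windows and 27 shared every window, with a median of 84.1% over the 85. The rows of such members hold reads that may belong to a copy.

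RPS27 and RPS27RT are the extreme case, since their coding sequences of 252 bases do not differ at any base. RPS27 lies at chr3:90212522-90213651 and RPS27RT at chr9:114982366-114982739, both on the minus strand of GRCm38. Their common coding sequence, without the stop codon, shows why no read from it can be placed:
RPS27 and RPS27RT: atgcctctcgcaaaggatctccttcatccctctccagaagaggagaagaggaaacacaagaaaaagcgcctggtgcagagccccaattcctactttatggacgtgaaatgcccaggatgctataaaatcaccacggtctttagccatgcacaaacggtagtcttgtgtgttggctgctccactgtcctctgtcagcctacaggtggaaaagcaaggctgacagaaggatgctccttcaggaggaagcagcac

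The split of the RPS27 reads between both rows differed widely between libraries, also within 3 of the 5 groups. RPS27RT held 50.2%, 97.2% and 3.40% of the sum in the bulk sh-NC tumors, and 4.43%, 3.38% and 12.2% in the bulk sh-B7-H3 (1) tumors. In sorted cells it held 0.0587%, 0.0656% and 17.9% with sh-NC, 50.1%, 0.0449% and 14% with sh-B7-H3 (1), and 99.8%, 94.9% and 99.8% with sh-B7-H3 (2). The sum itself lay between 800 and 1840 in all 15 libraries, a range like that of other members.

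**Figure D1:**
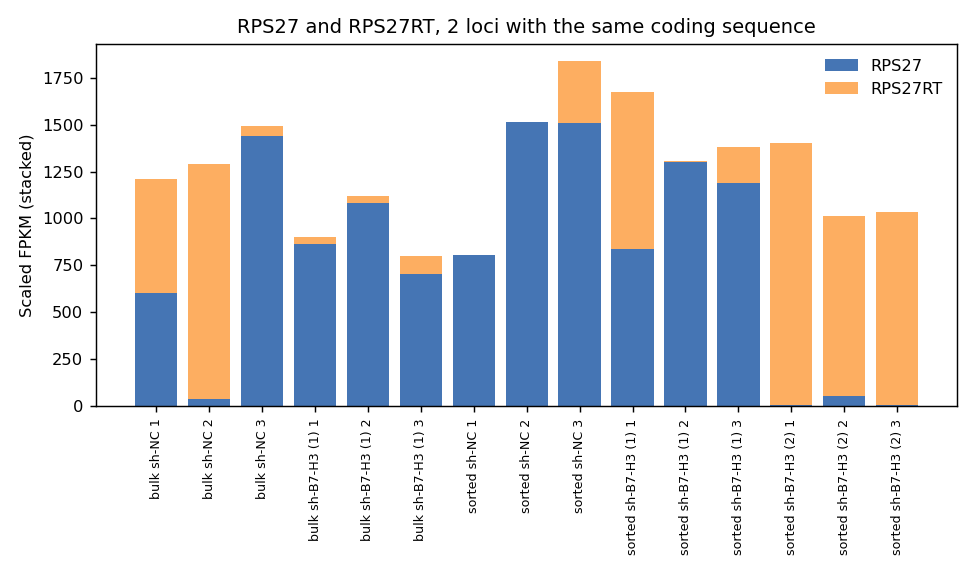
RPS27 and RPS27RT in each of the 15 libraries, in scaled FPKM, as stacked bars. The share of RPS27RT runs from 0.0449% to 99.8%, while the height of the bars runs from 800 to 1840.

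A further 3 members, RPL26, RPL30 and RPL34, stood at low levels in their own rows, while a pseudogene of nearly the same sequence had a row at a far higher level. RPL26 (chr11:68901583-68906989) and GM15772 (chr5:3236431-3236868) differ at 2 of 435 coding bases. RPL30 (chr15:34440505-34443640) and GM12191 (chr11:49678710-49679057) differ at 1 of 345. RPL34 (chr3:130726831-130730398) and RPL34-PS1 (chr6:71124610-71124963) differ at 2 of 351. These stretches of 60 bases of the coding sequence, with 1 differing base in capitals, show how little separates each pair:
RPL26, bases 147 to 206: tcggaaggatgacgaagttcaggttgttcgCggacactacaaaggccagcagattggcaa
GM15772, same stretch: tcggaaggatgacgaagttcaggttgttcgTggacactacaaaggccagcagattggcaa
RPL30, bases 66 to 125: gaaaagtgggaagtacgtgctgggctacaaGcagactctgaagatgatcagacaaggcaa
GM12191, same stretch: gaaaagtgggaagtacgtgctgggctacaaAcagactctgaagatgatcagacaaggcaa
RPL34, bases 102 to 161: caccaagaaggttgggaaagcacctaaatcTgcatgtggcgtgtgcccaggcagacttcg
RPL34-PS1, same stretch: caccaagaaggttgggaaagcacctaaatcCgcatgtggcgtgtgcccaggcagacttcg

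Levels are given as scaled FPKM: the deposited FPKM, a fragment count scaled to gene length and library total, divided by a median-ratio factor per library. Being per length, they can be set side by side between genes. RPL26 stood at 3.42 to 34.3 scaled FPKM while the GM15772 row held 938 to 1921. The RPL30 row held 5.04 to 55.3 and GM12191 475 to 857, and the RPL34 row held 11.3 to 77.5 and RPL34-PS1 416 to 879. Which locus the reads came from cannot be told apart from these values.

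**Figure D2:**
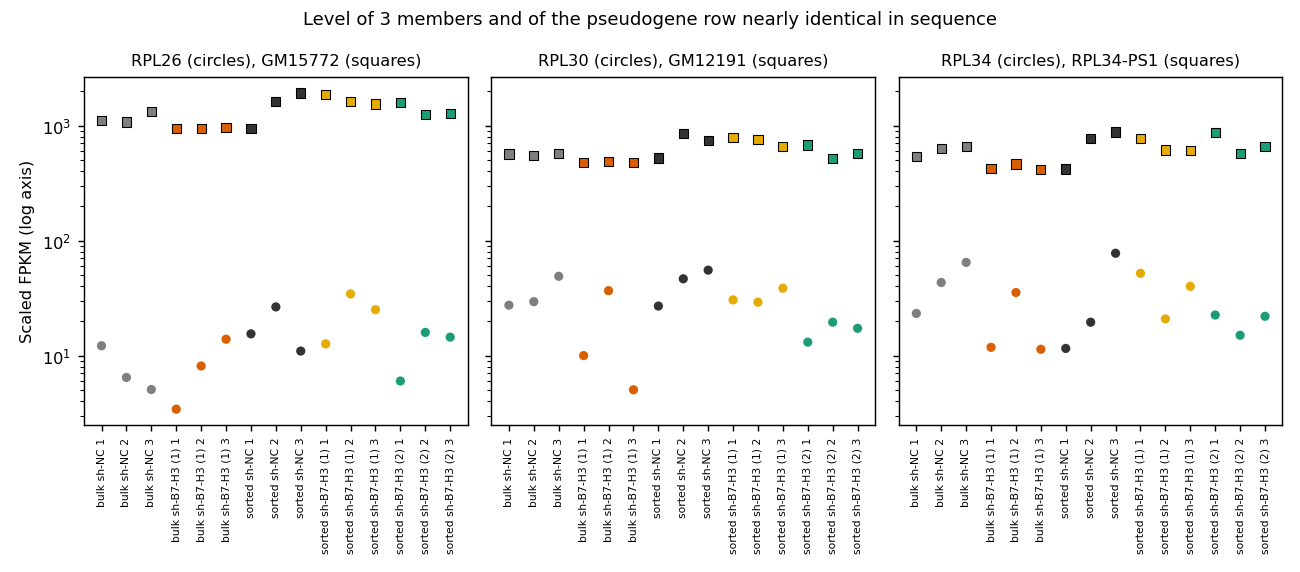
Scaled FPKM (log axis) of RPL26, RPL30 and RPL34 and of the pseudogene row that shares most of each coding sequence, 1 point per library. In each pair the pseudogene row lies above the gene's own row in all 15 libraries.

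Levels differed widely among the 82 members present in every library. The median level of a member over the 15 libraries ran from 12.6 (RPL26) to 2244 (RPL41), with a median of 551. Of these members, 11 exceeded 1000, 63 lay between 100 and 1000, and 8 lay under 100. The highest was RPL41, which encodes the smallest ribosomal protein, followed by RPL38, the stalk protein RPLP1 and the RPS27 sum. The 8 low ones were RPL26, RPL34, RPL30, RPL7L1, RPL32L, RPS15A, RPS20 and RPL22. Of these, RPL26, RPL34, RPL30 and RPS15A share over 20% of their windows with pseudogenes listed as rows of their own.

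The members moved together from library to library. For the typical member the highest library stood 2.13 times above the lowest. The correlation of a member's log2 level with the mean of the other members over the 15 libraries had a median Pearson's r of 0.889, with 36 members over 0.9 and 6 under 0.5. These r values are descriptions over 15 points that share library, scaling factor and group. The highest was 0.985, and the lowest was 0.143 for RPS26, and RPL26, RPL36AL, RPL28 and RPL23 were also under 0.5. RPS26, which lines the mRNA exit channel of the small subunit, stood between 806 and 1229 in the 15 libraries, a ratio of 1.53. RPL28 was steadier still, between 557 and 798, a ratio of 1.43.

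**Figure D3:**
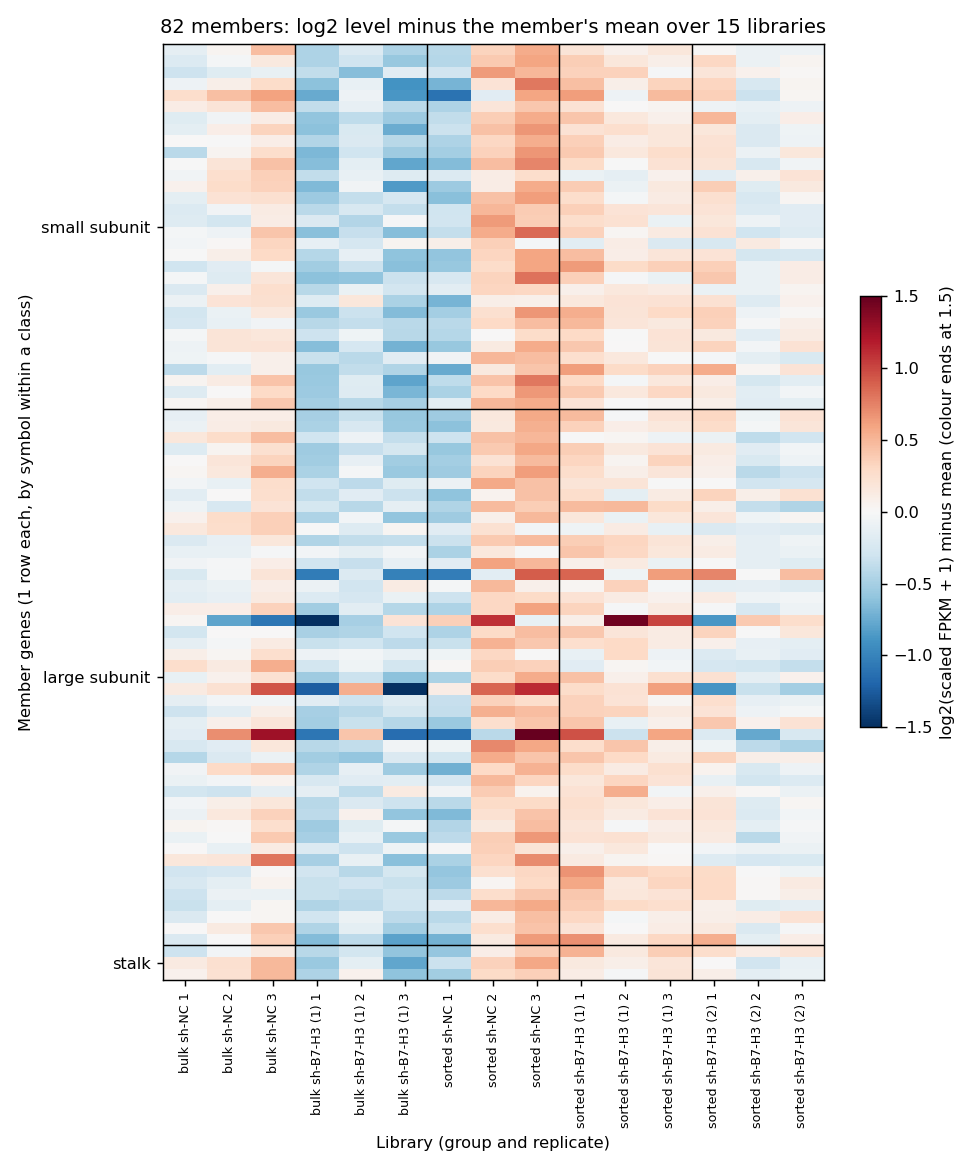
The 82 members (rows, grouped by subunit, log2(scaled FPKM + 1) minus the member's mean) in the 15 libraries (columns, by group). Most rows are low in the bulk sh-B7-H3 (1) tumors and in sorted sh-NC replicate 1, and high in sorted sh-NC replicate 3.

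The summed level of the 86 rows showed the same order. It was 46000, 50067 and 58850 scaled FPKM in the bulk sh-NC tumors, and 36410, 41484 and 37511 in the bulk sh-B7-H3 (1) tumors. The sorted sh-NC cells gave 37095, 61557 and 68424. The sorted cells with sh-B7-H3 (1) gave 60504, 54394 and 54379, and those with sh-B7-H3 (2) gave 53676, 44071 and 47254. Bulk sh-B7-H3 (1) thus lay wholly below bulk sh-NC. The sorted sh-NC libraries spanned both knockdown groups, with a mean of 55692 ± 16468 (SD, n = 3) against 56426 ± 3532 (n = 3) and 48334 ± 4893 (n = 3).

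Sorted sh-NC replicate 1 was the lowest of the 9 sorted libraries for 63 of the 82 members, and sorted sh-NC replicate 3 was the highest of all 15 for 43. Every comparison with the sorted sh-NC group therefore rests on 3 controls whose summed level differs more among themselves than that of either shRNA group. As a share of the summed FPKM without MIR6236, the members held 12.1% ± 0.437 (SD, n = 3) in bulk sh-NC, 9.81% ± 0.261 in bulk sh-B7-H3 (1), 12.6% ± 2.43 in sorted sh-NC, 13% ± 0.212 in sorted sh-B7-H3 (1) and 11.9% ± 0.759 in sorted sh-B7-H3 (2) (n = 3 each).

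**Figure D4:**
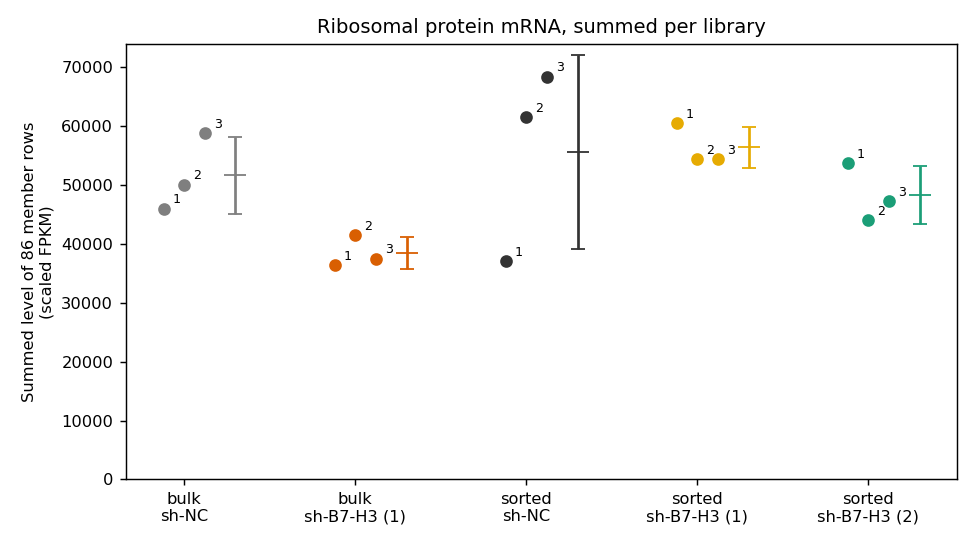
Summed scaled FPKM of the members in each library (points) with the mean and SD of each group of 3. Bulk sh-B7-H3 (1) lies between 36410 and 41484, below the 3 bulk sh-NC tumors, and the sorted sh-NC cells spread from 37095 to 68424.

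Several features of the libraries bear on these levels. The deposited FPKM summed to 435533 to 1544000 per library, and the single entry MIR6236, a microRNA symbol, held 6.01% to 79.7% of it, with over 50% in bulk sh-NC replicate 3, bulk sh-B7-H3 (1) replicate 2 and sorted sh-NC replicate 2. Depth relative to the deepest library, read from the spacing of low FPKM values, ran from 0.468 to 1. The targeted gene CD276 stood at 34.0, 20 and 17.3 in sorted sh-NC, at 7.29, 14 and 11.5 with sh-B7-H3 (1), and at 23.3, 25.4 and 25.7 with sh-B7-H3 (2). The library set labelled sh-B7-H3 (2) was not shown to hold less CD276 mRNA than its control (log2 difference 0.12 ± 0.23 (SE), adjusted p = 0.775 by limma). In bulk tumors CD276 was 20.8 to 23.5 with sh-NC and 17.8 to 24.4 with sh-B7-H3 (1) (-0.07 ± 0.13, adjusted p = 0.709). In sorted cells labelled sh-B7-H3 (1) the difference from sh-NC was -1.04 ± 0.29 and also missed the threshold (adjusted p = 0.0544). The group names are therefore the labels' names, and the directions given below are those of the libraries so labelled.

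Markers of other cell types gave the following sums. The 10 leukocyte markers summed to 405 to 805 in bulk sh-NC, 392 to 668 in bulk sh-B7-H3 (1) and 3.42 to 10.9 in 8 of the 9 sorted libraries, where up to 4 of them, CD3E, CD4 and CD8A included, were at 0. Sorted sh-B7-H3 (2) replicate 1 stood apart at 516, and its 4 endothelial markers summed to 14.5 where the other sorted libraries had at most 0.646. The 6 skeletal muscle markers summed to 53.4 to 105 in sorted sh-NC, above the 4.42 to 21.7 of bulk sh-NC. They summed to 32.5 to 83.1 in sorted sh-B7-H3 (1), 38.5 to 67.1 in sorted sh-B7-H3 (2) and 34.8 to 676 in bulk sh-B7-H3 (1). The 5 epithelial markers summed to 713 to 1772 and the 3 renal tubule markers summed to 85.8 to 161.

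In bulk tumors, ribosomal protein mRNAs were lower in the libraries labelled sh-B7-H3 (1) than in those labelled sh-NC. By limma over 11799 genes, 24 of the 83 members tested fell at an adjusted p below 0.05 and none rose, against 8.53% of all genes tested that fell. In direction, 79 of the 83 were lower. The median log2 difference of the members was -0.41, a 1.32-fold lower level, against 0.02 over all genes. For 56 members every sh-B7-H3 (1) tumor lay below every control tumor, against 20.1% of all genes. The fallen members were 11 of 33 in the small subunit, 12 of 47 in the large subunit and 1 of 3 in the stalk. The 4 with a positive difference, none of them called, were RPL26 (0.00), RPL21 (0.01), RPL36AL (0.11) and RPS4L (0.45).

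RPS14, a protein of the small subunit's platform whose reduced dosage underlies the anemia of the 5q- syndrome, fell the most among the members that passed the test. It stood at 1119, 1276 and 1420 in the controls and at 552, 881 and 507 in the sh-B7-H3 (1) tumors. The log2 difference was -1.01 ± 0.23 (SE, adjusted p = 0.025 by limma), and the groups did not overlap.

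RPLP1, an acidic stalk protein that helps recruit elongation factors, stood at 1443, 1545 and 1834 against 889, 1180 and 766 (log2 difference -0.78 ± 0.19, adjusted p = 0.033 by limma). Its stalk partners were lower without passing the test: RPLP2 stood at 626, 701 and 840 against 435, 626 and 394 (-0.59 ± 0.20, adjusted p = 0.077), and RPLP0 at 565, 684 and 770 against 524, 582 and 466 (-0.36 ± 0.15, adjusted p = 0.135). RPLP0 overlapped between the groups and RPLP1 did not.

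RPS20, a protein of the small subunit's head, stood at 66.3, 77.0 and 80.7 against 39.8, 61.1 and 34.9 (log2 difference -0.75 ± 0.21, adjusted p = 0.0436 by limma). RPSA, which also serves as a laminin receptor at the cell surface, stood at 449, 468 and 581 against 308, 330 and 312 (-0.65 ± 0.13, adjusted p = 0.0171). Neither gene overlapped between the groups. RPL11, which binds the 5S ribosomal RNA and the p53 regulator MDM2, stood at 202, 217 and 248 against 146, 170 and 140 (-0.55 ± 0.12, adjusted p = 0.025). RPL5, its partner in the 5S particle, did not share this pattern, with 428, 436 and 526 against 426, 390 and 432 (-0.15 ± 0.12, adjusted p = 0.393). Whether RPL11 and RPL5 differ from each other in their change was not tested.

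The smallest changes that passed were those of RPS15A, RPL32L and RPL37, between -0.47 and -0.39 on the log2 scale. RPS15A, whose start is printed above, was at 31.6, 34.7 and 39.0 against 23.5, 27.4 and 24.4, and RPL37 was at 268, 293 and 310 against 206, 236 and 222. RPL32L, the pseudogene row, moved from 31.5, 37.0 and 40.0 to 24.4, 27.6 and 25.8. None of these groups overlapped. The other members that fell did so by 0.48 to 0.74 and included RPS19, RPL9, RPS25, RPS16, RPL18, RPL13, RPL8, RPS15, RPL24, RPL3, RPL29, RPS27L, RPL10 and RPL10A.

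The most abundant member, RPL41, missed the threshold at 2479, 2509 and 3868 against 1565, 2048 and 1434 (log2 difference -0.80 ± 0.24, adjusted p = 0.053 by limma). RPS6, the S6 kinase substrate, was at 344, 356 and 381 against 285, 273 and 322 (-0.30 ± 0.11, adjusted p = 0.087). The RPS27 sum was at 1211, 1289 and 1492 against 903, 1121 and 800 (-0.51 ± 0.17, adjusted p = 0.0705). In these 3 members the groups did not overlap.

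RPL10, which joins late in large subunit assembly, fell from 645, 753 and 752 to 498, 560 and 476 (log2 difference -0.49 ± 0.12, adjusted p = 0.0355 by limma). RPL30 alone had the lowest difference of all members, at 27.4, 29.4 and 48.9 against 9.99, 36.6 and 5.04, but its groups overlapped and it did not pass (-1.37 ± 0.62, adjusted p = 0.148). RPL34 alone was at 23.2, 43.2 and 64.6 against 11.8, 35.3 and 11.3 and did not pass (-1.21 ± 0.50, adjusted p = 0.123). Summed with RPL34-PS1 it did (-0.52 ± 0.14, adjusted p = 0.0387). Members with the tract at the annotated start showed a median of -0.35 (13 tested), and those without it -0.40 (48 tested), which is a description only.

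The count of 24 changed when single tumors were left out. It was 39 without bulk sh-B7-H3 (1) replicate 2, 7 without bulk sh-NC replicate 1, 3 (1 of them higher) without bulk sh-B7-H3 (1) replicate 3, 1 without bulk sh-NC replicate 3, and 0 without bulk sh-NC replicate 2 or bulk sh-B7-H3 (1) replicate 1. The median lay between -0.50 and -0.33 in these 6 cases, and at -0.15 under quantile normalization. The share of all genes called in these 6 fits is not given, so the counts are descriptions. Of all 11799 genes tested, 1515 rose in the same tumors, which is the share to set beside the marker counts. Of 5 fibroblast markers 4 were tested and 3 rose, and their sum was 81.2 to 161 with sh-NC and 258 to 602 with sh-B7-H3 (1). Of 6 skeletal muscle markers 4 rose, with sums of 4.42 to 21.7 against 34.8 to 676 and MYH4 at 0 in bulk sh-NC replicates 1 and 3. Of 5 epithelial markers 2 rose, with sums of 713 to 811 against 955 to 1267, and EPCAM stood at 25.8, 25 and 12.8 against 141, 90 and 182. KRT18 and KRT19 were also higher in every sh-B7-H3 (1) tumor than in any control. CDH1 (202, 173 and 183 against 178, 142 and 193) and KRT8 (227, 287 and 313 against 253, 242 and 263) overlapped. Of 3 renal tubule markers 1 rose, CDH16, with sums of 85.8 to 105 against 106 to 161. PAX2 was also higher, and PAX8 was not, at 27.4, 26.5 and 28.0 against 26.9, 21.6 and 26.2. Of 7 leukocyte markers tested 1 rose, the T cell marker CD3E, at 0.340, 0.583 and 0.261 against 5.99, 4.26 and 1.78. In this comparison CD3E and the muscle markers CKM and MYH4 reached 1 scaled FPKM only in the sh-B7-H3 (1) tumors. Calls of such markers depend on the group where they are high and are given as descriptions. The part of these cells in the result was not tested, and in bulk tissue fewer cells of a type cannot be told apart from less RNA per cell.

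**Figure D5:**
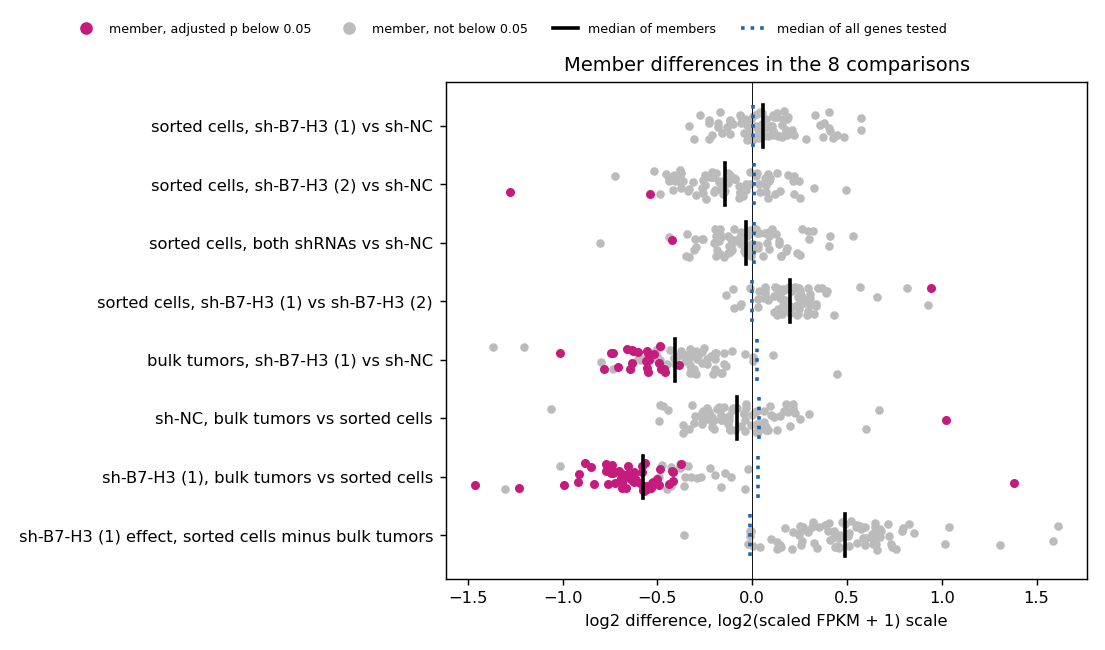
Log2 difference of every tested member in the 8 comparisons, on the log2(scaled FPKM + 1) scale, with members at an adjusted p below 0.05 in colour, the members' median as a solid bar and the median of all genes as a dotted bar. The members' median lies at -0.41 in bulk tumors with sh-B7-H3 (1) and at -0.58 for bulk against sorted sh-B7-H3 (1), and near 0 for the sorted comparisons with sh-NC.

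Between materials, bulk sh-B7-H3 (1) tumors stood below sorted sh-B7-H3 (1) cells in nearly all members. Of 83 members, 57 were lower in bulk by limma, against 17.1% of all genes that were lower, and 1, the pseudogene row RPS4L, was higher, against 21.1%. The median log2 difference was -0.58, a 1.49-fold lower level in bulk, against 0.03 over all genes, and 82 of 83 members were lower in bulk. For 66 members every bulk tumor lay below every sorted library, against 25% of all genes. The lower members were 25 of 33 in the small subunit, 30 of 47 in the large subunit and 2 of 3 in the stalk.

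RPL22L1, the paralog of RPL22 whose expression RPL22 can repress, had the largest called difference after RPL26 among the members lower in bulk. It stood at 70.4, 127 and 72.1 in bulk and at 268, 140 and 226 in sorted cells (log2 difference -1.23 ± 0.30, adjusted p = 0.0165 by limma). RPL9, a protein of the large subunit, stood at 497, 595 and 448 against 1260, 859 and 967 (-0.99 ± 0.18, adjusted p = 0.0067). The groups did not overlap for either gene. RPL26 itself was called at -1.46 ± 0.48 (adjusted p = 0.0442) with overlapping groups, and summed with GM15772 it was at -0.82 ± 0.13 (adjusted p = 0.00406).

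RPS27A, which is made as a fusion with ubiquitin, stood at 430, 492 and 399 in bulk against 962, 752 and 790 in sorted cells (log2 difference -0.92 ± 0.15, adjusted p = 0.00427 by limma). RPL5 stood at 426, 390 and 432 against 835, 660 and 640 (-0.76 ± 0.14, adjusted p = 0.00686), and RPLP0 at 524, 582 and 466 against 1008, 777 and 906 (-0.77 ± 0.15, adjusted p = 0.00803). None of these 3 passed the test between the bulk groups. The smallest differences that passed were RPL31 (-0.42 ± 0.12, adjusted p = 0.0322) and RPL21 (-0.37 ± 0.11, adjusted p = 0.0358). The count of 58 called members was 19 without bulk sh-B7-H3 (1) replicate 1 and 36 without sorted sh-B7-H3 (1) replicate 1. The share of all genes called in those fits is not given. Host cell markers differed in the same libraries, with leukocyte sums of 392 to 668 in bulk against 9.78 to 10.9 in sorted cells and fibroblast sums of 258 to 602 against 24.9 to 41.3, and their part in the result was not tested.

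RPS4L was higher in bulk. It stood at 2.85, 3.30 and 1.29 in bulk sh-B7-H3 (1) against 0.443, 0.269 and 0.167 in sorted cells (log2 difference 1.38 ± 0.24, adjusted p = 0.00538 by limma). With sh-NC it stood at 1.11, 1.55 and 1.78 in bulk against 0.103, 0.0568 and 0.522 in sorted cells (1.02 ± 0.17, adjusted p = 0.00753). RPS4L was the only called member between bulk and sorted sh-NC, where 10.4% of all genes were higher in bulk. In both comparisons it reached the 1 scaled FPKM needed for testing only in its bulk libraries, so the calls depend on the group where it is high and are given as descriptions. The leukocyte and endothelial markers were also higher in bulk than in sorted cells, while the sum of the skeletal muscle markers was lower in bulk with sh-NC. The part of these cells in this row was not tested.

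The other 82 members gave no call between bulk and sorted sh-NC, 1 of them at an unadjusted p below 0.05, and the median of all 83 was -0.08 against 0.04 over all genes. Without sorted sh-NC replicate 1, 20 members passed by limma, 19 of them lower in bulk, against 17% of all genes that were lower, and the median was -0.36. Without sorted sh-NC replicate 3 the median was 0.11.

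The sh-B7-H3 (1) effect itself, in sorted cells minus bulk tumors, was tested as an interaction over 12061 genes. No member passed by limma, against 0.464% of all genes in either direction. The difference was positive for 78 of the 83 members, with a median of 0.49 against -0.01 over all genes. The largest were RPL34 (1.61 ± 0.92, adjusted p = 0.414) and RPS14 (1.59 ± 0.52, adjusted p = 0.246). Summed with RPL34-PS1, RPL34 was at 0.53 ± 0.36 (adjusted p = 0.466). In sorted cells RPS14 stood at 431, 828 and 1404 in sorted sh-NC against 1436, 888 and 1299 in sorted sh-B7-H3 (1). Leaving out single libraries put the median between 0.22 and 0.69, with the lowest value without sorted sh-NC replicate 1.

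In sorted cells, sh-B7-H3 (1) against sh-NC gave no called member among 82 by limma, and 0 at an unadjusted p below 0.05, where 13.4% of all genes were called in either direction. The median was 0.06 against 0.00 over all genes, with 54 members higher and 28 lower. RPL5 had 348, 614 and 649 with sh-NC and 835, 660 and 640 with sh-B7-H3 (1). RPS6 had 348, 511 and 500 against 429, 403 and 360. In both genes the groups overlapped, with sorted sh-NC replicate 1 the lowest of the 6 libraries. Leaving out single libraries put the median between -0.20 and 0.23, with the lowest value without sorted sh-NC replicate 1. Of 5 epithelial markers 3 rose in this comparison, against 1008 of all 11162 genes tested. Their sums were 1368 to 1589 with sh-B7-H3 (1) against 796 to 964 with sh-NC. CDH1 overlapped, at 184, 229 and 223 against 357, 261 and 210. The part of these cells in the result was not tested.

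In the cells labelled sh-B7-H3 (2), which share these controls, 2 of the 82 members fell by limma and none rose, against 7.46% of all genes that fell, and 3 members had an unadjusted p below 0.05. The median was -0.15 against 0.01 over all genes, with 60 members lower, but it was 0.09 against 0.21 over all genes with FPKM as deposited and 0.02 under quantile normalization. RPL29, a protein of the large subunit, stood at 205, 261 and 258 with sh-NC and at 169, 168 and 158 with sh-B7-H3 (2), without overlap (log2 difference -0.54 ± 0.15, adjusted p = 0.0442). RPL30 stood at 26.9, 46.5 and 55.3 against 13.1, 19.5 and 17.2 (-1.28 ± 0.27, adjusted p = 0.0141). Summed with GM12191, RPL30 was at 549, 903 and 802 against 691, 534 and 590 and did not pass (-0.29 ± 0.24, adjusted p = 0.463).

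Among single libraries left out, sorted sh-NC replicate 1 moved this count the most. Without it, 23 members fell, against 13.7% of all genes, with a median of -0.39. The count was 0 or 1 without any other single library, and the median turned to 0.05 without sorted sh-NC replicate 3. Without sorted sh-B7-H3 (2) replicate 1, the library rich in leukocyte markers, no member passed and the median was -0.20. Of all 11242 genes tested, 1312 rose with sh-B7-H3 (2). Of 5 epithelial markers 4 rose in the same libraries, with sums of 1592 to 1772 against 796 to 964. The remaining marker, CDH1, was lower without a call, at 166, 194 and 182 against 357, 261 and 210 with sh-NC. Fibroblast markers were also higher in sum (63.3 to 103 against 17.9 to 33.3, 3 of 4 tested rose). The part of these cells in the result was not tested.

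With both shRNAs taken as 1 group of 6 against the same controls, 1 of the 82 members fell by limma, against 7.96% of all genes that fell, and 2 had an unadjusted p below 0.05. This was RPL29, at 179, 207 and 197 with sh-B7-H3 (1) and the values above otherwise (log2 difference -0.42 ± 0.13, adjusted p = 0.0398). Its groups overlapped, since sorted sh-NC replicate 1 stood at 205. Without that library 11 members fell, against 8.8% of all genes. RPL29 lost its call without sorted sh-NC replicate 2 or 3 and in 4 of the 6 fits without 1 knockdown library.

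Between the shRNAs, sorted cells labelled sh-B7-H3 (1) stood above those labelled sh-B7-H3 (2). Only RPL30 passed by limma, against 1.75% of all genes that were higher, but 76 of 82 members were higher. The median log2 difference was 0.20 against 0.00 over all genes. For 26 members every sh-B7-H3 (1) library lay above every sh-B7-H3 (2) library, against 13.2% of all genes. RPL30 stood at 30.5, 29.1 and 38.5 against 13.1, 19.5 and 17.2 (0.94 ± 0.16, adjusted p = 0.0281), and summed with GM12191 it did not pass (0.35 ± 0.13, adjusted p = 0.195).

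No label pairs the libraries. Deviations from the group means correlated positively at all 3 replicate numbers in this comparison alone. That was seen in these same data, so results with the number as a block are descriptions. With this block 23 members were higher, against 9.09% of all genes. They included RPL30 (0.94), RPL26 (0.93), RPL34 (0.82), RPL17 (0.66), RPL35 (0.57) and RPL5 (0.37), and RPS3 had the smallest (0.24). The RPL34 and RPL26 rows hold a small share of the reads set out above. Summed with their pseudogene rows and without the block, RPL34 was at -0.02 ± 0.19 (adjusted p = 0.959 by limma) and RPL26 at 0.31 ± 0.14 (adjusted p = 0.264). RPL5 stood at 835, 660 and 640 against 635, 519 and 499, higher at each of the 3 replicate numbers, with a blocked adjusted p = 0.024 by limma. RPL41 stood at 2438, 2272 and 2244 against 1928, 1857 and 1889, without overlap (0.29 ± 0.07, blocked adjusted p = 0.045). RPL35, whose tract is shown above, stood at 1316, 1468 and 1170 against 1048, 835 and 790 (0.57 ± 0.11, blocked adjusted p = 0.033). In this comparison CD276 was lower with sh-B7-H3 (1) (-1.16 ± 0.20, adjusted p = 0.0275 without the block), and fibroblast markers summed to 24.9 to 41.3 against 63.3 to 103. Their part in the result was not tested.

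Most members with a close relative in the family kept the same order in every library, but RPL22 and RPL22L1, and RPL36A and RPL36AL, did not. RPL22 stood at 63.5 to 124 and its paralog RPL22L1 at 70.4 to 276, and RPL22L1 varied more (highest over lowest 3.92 against 1.95). RPL22L1 was the higher except in sorted sh-NC replicate 1 (70.7 against 72.0) and bulk sh-B7-H3 (1) replicate 3 (72.1 against 73.9). RPL36A and RPL36AL were near each other, at 430 to 726 and 397 to 758. RPL7 stood at 660 to 1149 and RPL7L1, a relative linked to ribosome assembly in the nucleolus, at 22.2 to 40.9. RPS27L, a p53-responsive paralog of RPS27, stood at 168 to 454 and was among the members that fell in bulk.

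The forms known from other tissues were close to absent. RPL3 stood at 343 to 771 and RPL3L, the form of striated muscle, at 0.0485 to 1.28. The highest RPL3L value was in bulk sh-B7-H3 (1) replicate 2, the library in which the muscle markers summed to 676. RPL39 stood at 598 to 1375 and RPL39L, known from testis, at 0 to 0.458. RPL10 stood at 476 to 1043, and RPL10L, also of testis, was listed at 0 in all libraries but sorted sh-NC replicate 2, where it was 0.307. RPS4X stood at 588 to 976 and RPS4L at 0.0568 to 3.30.

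Genes that work beside these proteins were followed in lists. FAU, which encodes a small subunit protein fused to a relative of ubiquitin, and RACK1, a scaffold on the small subunit, fall outside the symbol rule. RACK1 fell in bulk tumors with sh-B7-H3 (1) (log2 difference -0.62 ± 0.16, adjusted p = 0.0384 by limma), while FAU (-0.74 ± 0.24, adjusted p = 0.0669) did not pass. Of 16 translation factors and other mRNAs known to carry a TOP tract, 2 fell in bulk, EIF3F (-0.38) and EIF3M (-0.29), and none rose, with a median of -0.18. That share is near the 8.53% of all genes that fell. EEF1A1, the main elongation factor, was at -0.51 ± 0.18 (adjusted p = 0.0839). HNRNPA1, an RNA-binding protein of the same list, had a positive difference of 0.50 that did not pass.

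The 78 mitochondrial ribosomal proteins, which belong to a separate ribosome, had 13 that fell in bulk with sh-B7-H3 (1), against the same 8.53% of all genes, and none that rose, with a median of -0.26. Of 23 ribosome biogenesis genes, UBTF, a factor of RNA polymerase I, rose (0.32 ± 0.08, adjusted p = 0.0369 by limma) and WDR12, a factor of large subunit assembly, fell (-0.41 ± 0.11, adjusted p = 0.0373), with a median of 0.00. Among all 11799 genes tested, 1515 rose. Of 7 ribosomal pseudogene rows, 4 fell, with a median of -0.60.

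In bulk against sorted sh-B7-H3 (1), 17.1% of all genes were lower in bulk and 21.1% higher. Of the 78 mitochondrial ribosomal proteins 42 were lower in bulk (median -0.42) and none higher. Of the 16 translation genes 9 were lower, led by EIF3M (-1.03) and EEF1A1, with HNRNPA1 higher (0.73). Of the 23 biogenesis genes 4 were lower and 3 higher (median -0.06), RACK1 was lower (-0.86), and of the 7 pseudogene rows 5 were lower. In each of the sorted comparisons with sh-NC, none of these lists had more than 1 called gene.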

How the data were processed

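The authors deposited 1 table of FPKM per gene and library for 15 libraries, made from single-end 75-base reads of poly(A) RNA, and a second table of log2(FPKM + 1) for part of the genes, which was not used. Genome build mm10 is from the submitters' processing notes. The paper names the VIPER pipeline for its differential expression. The aligner, counter and annotation behind the deposited values are not given in the sources used here. Both the paper and the labels name a library kit, and the kits differ. Read totals are not in the table, so depth is only relative and single low values have no interval.

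Of 24917 entries, 26 whose symbols had become dates were dropped. Each library was then divided by its median ratio to the geometric mean, taken from the 9872 genes that reached 1 FPKM in all libraries. A gene entered a comparison when at least 3 of its libraries reached 1 scaled FPKM. Tests were run in limma 3.58.1 under R 4.3.3, with the trend option, on log2(scaled FPKM + 1), so differences of low genes are understated. Benjamini-Hochberg adjustment ran over all genes tested, and calls were made at 0.05. Counts of members at an unadjusted p are given without the share of all genes at that threshold and are descriptions only. The same holds for counts of called members in alternative runs printed without such a share. The 8 comparisons were fitted on their own groups and the scripts were tested on simulated data. Python 3.11.15, numpy 2.4.6, pandas 2.3.3, scipy 1.17.1 and matplotlib 3.10.9 were also used.

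The members and lists were chosen with earlier results of these data known. Named members are, per comparison, the 3 largest and 3 smallest called differences among members averaging 1 scaled FPKM or more, plus a fixed set of members with known roles or paralogs. RPS26, RPL28, RPL35, RPL17 and RPS3, the other called members and CD276 were named after their values were seen. Copies were searched as windows of 75 bases of GENCODE M21 coding sequences in all other transcripts.

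Replicate numbers are from the titles. Deviations from group means correlated between same-numbered libraries in sorted sh-B7-H3 (1) and (2) (r = 0.319, 0.341 and 0.360, all cross-numbered r negative). They did not in every pair of the other groups compared, where r for equal numbers ran from -0.535 to 0.413. Cross-numbered libraries reached r = 0.597, in bulk sh-NC replicate 3 with bulk sh-B7-H3 (1) replicate 2. These r therefore do not establish a pairing by number. Replicates of a group correlated with r from 0.906 to 0.986 across genes, and no 2 libraries held identical values. Alternatives changed the scaling, pseudocount, filter, RPS27 sum, fit, block and weights, and left out each library. Leaving out libraries rich in MIR6236 and summing members with pseudogene rows were chosen after seeing the data. The values of some single genes are not reported here.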

Additional observations from a re-analysis of the deposited data

Results flagged for a closer look

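Of 37 values screened, each over a set of 6 libraries, 1 stood apart from the rest of its set. That set pooled the sorted knockdown libraries of both shRNAs. RPS4L in sorted sh-B7-H3 (2) replicate 1 was at 1.10 scaled FPKM, while the other 5 sorted knockdown libraries lay between 0.167 and 0.492, and its gap to the nearest was 0.651 of the whole range. Chance flags about 1 in 20 such sets. The same library held 516 scaled FPKM of leukocyte markers, where the other sorted knockdown libraries held 9.78 to 10.9, and the part of those cells in the RPS4L value was not tested.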

How the results depend on the processing

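No called difference of a named member changed sign under any alternative run. Counts of called members moved as follows, given without the share of all genes called in the same runs. For sorted sh-B7-H3 (1) against sh-NC (0), array weights gave 1 and leaving out single libraries 0 to 3. For sh-B7-H3 (2) against sh-NC (2), FPKM as deposited, no filter and summing pseudogene rows gave 1, separate RPS27 rows and fitting all groups together 4, leaving out libraries rich in MIR6236 0, and single libraries 0 to 23. For both shRNAs (1), FPKM as deposited and leaving out MIR6236-rich libraries gave 0, quantile normalization 5, array weights 47 and single libraries 0 to 11. For sh-B7-H3 (1) against (2) (1), scaling to the summed FPKM without MIR6236, no filter, fitting all groups and summing pseudogene rows gave 0, separate RPS27 rows 2, array weights 13 and single libraries 0 to 4. For bulk sh-B7-H3 (1) against sh-NC (24), FPKM as deposited gave 3, quantile normalization 10, no filter 4, fitting all groups 5, array weights 70 and single libraries 0 to 39. For bulk against sorted sh-NC (1), FPKM as deposited gave 2, quantile normalization 4, leaving out MIR6236-rich libraries 0 and single libraries 0 to 20. For bulk against sorted sh-B7-H3 (1) (58), quantile normalization gave 28 and single libraries 19 to 61. For the interaction (0), array weights gave 38 and single libraries 0 to 0. The causes were not tested. The array weights stopped before convergence in 7 of the 8 comparisons.

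With the replicate block the counts were 1 for sh-B7-H3 (2), 0 for both shRNAs, 23 for sh-B7-H3 (1) against (2), 4 for bulk sh-B7-H3 (1), 2 for bulk against sorted sh-NC and 36 for bulk against sorted sh-B7-H3 (1), and 0 as before in the other 2 comparisons. No label pairs the libraries by number in any comparison, so the counts with the block are descriptions.

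The members' median moved under quantile normalization to 0.05 for sh-B7-H3 (1) against (2), to -0.15 in bulk and to -0.31 for bulk against sorted sh-B7-H3 (1), where it was -0.88 with FPKM as deposited and -0.43 scaled to the summed FPKM without MIR6236. In that comparison FPKM as deposited put the median of all genes at -0.23. Depth limits the lowest members: RPL3L, RPL39L and RPL10L stayed under the filter in each comparison and were not tested.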
